A study of Mus musculus with 24 samples.

Results

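The mucus that lines the intestine is built largely by goblet cells, and 10 genes that encode its secreted proteins, their folding helpers and a membrane-bound mucin are described here: *Muc2*, *Zg16*, *Fcgbp*, *Clca1*, *Agr2*, *Tff3*, *Spink4*, *Retnlb*, *Tgm3* and *Muc13*. They were chosen by name, as known components of goblet cells and their mucus, and with earlier results of these data known. They are 10 of the 53465 genes in the count table. All 10 passed the filter on low counts, *Tgm3* only through the colon, and are among the 15044 genes tested. The counts come from Guca2a-Venus mice, which carry an artificial chromosome (BAC RP23-104G3) in which the fluorescent protein Venus takes the place of the coding part of the guanylin gene *Guca2a*. The line descends from a single founder, made in eggs from crosses of C57Bl6J and CBA. Tissue came from mice backcrossed to C57Bl6J to varying degree, for 3 to 8 generations. All 8 groups carry the transgene. Epithelium of the duodenum, jejunum, ileum and colon was dissociated, and dead cells, debris and CD45-positive cells were gated out. Living cells of high Venus fluorescence were sorted as the Venus-positive fraction, and those without fluorescence as the Venus-negative fraction. Each region and fraction has 3 RNA libraries. The design text speaks of 3 mice, while the labels do not tie a library to a mouse, so no pairing was made and replicate numbers only name libraries. Ages and sexes of the mice are not given in the labels.

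A goblet cell packs *Muc2*, a very large gel-forming mucin, into granules as compact disulfide-linked polymers that unfold into a net when released. *Agr2*, a protein of the disulfide isomerase family in the endoplasmic reticulum, is needed for the mucin to be made properly. *Fcgbp*, *Clca1* and *Zg16* are released with the mucin: *Fcgbp* is a large protein of von Willebrand D-type domains, *Clca1* a protease that acts on the mucus, and *Zg16* a lectin that binds the walls of Gram-positive bacteria. *Tff3* is a trefoil peptide of mucosal repair, *Retnlb* a resistin-like antibacterial peptide known for its induction during worm infection, and *Spink4* a small Kazal-type peptide of goblet cells. *Tgm3* is a transglutaminase that cross-links proteins, and *Muc13* is a mucin anchored in the apical membrane, made by enterocytes as well as goblet cells.

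The libraries held 7458616 to 23063124 counts on genes, of which genes of the mitochondrial genome took 32.3% to 80.7%. Levels are given as CPM, the count of a gene scaled to the library size after TMM adjustment. A count of 3, taken as the floor of detection, was worth 0.106 to 0.360 CPM, a limit that covers counting error only because amplified reads are not independent molecules. Epithelial identity was checked with 6 markers, whose summed level was 2104.9 to 5704 CPM in the positive and 1077 to 2370.1 CPM in the negative libraries. Markers of immune cells summed to 0.0759 to 29.6 CPM and those of stromal and endothelial cells to 0 to 12.7 CPM.

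Stretches of the genome just upstream of the members are shown so that the members can be compared by the letters before their starts. RefSeq's promoter table (GRCm38.p6) held 5 of the 10 members, with starts that differ from the gene starts given below for *Agr2* and *Tgm3*. The 180 bases from 200 to 21 bases before its starts are printed 5′ to 3′ on the forward strand, on which all 5 genes lie. They are chr7:141690140-141690319, chr7:28071036-28071215, chr12:35992725-35992904, chr2:130012140-130012319 and chr16:33793837-33794016. Capitals mark every match, on either strand and including overlaps, to any of 5 short motifs.
Muc2: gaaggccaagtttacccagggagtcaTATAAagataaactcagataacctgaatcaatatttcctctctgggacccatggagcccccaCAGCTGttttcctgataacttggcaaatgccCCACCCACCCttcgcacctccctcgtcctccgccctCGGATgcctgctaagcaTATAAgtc
Fcgbp: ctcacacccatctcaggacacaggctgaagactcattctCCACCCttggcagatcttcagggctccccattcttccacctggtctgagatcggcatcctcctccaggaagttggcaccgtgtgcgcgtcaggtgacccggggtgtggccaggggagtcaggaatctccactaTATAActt
Agr2: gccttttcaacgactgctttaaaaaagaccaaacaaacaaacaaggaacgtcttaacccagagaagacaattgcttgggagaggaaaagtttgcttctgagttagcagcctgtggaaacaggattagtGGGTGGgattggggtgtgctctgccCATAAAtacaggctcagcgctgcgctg
Tgm3: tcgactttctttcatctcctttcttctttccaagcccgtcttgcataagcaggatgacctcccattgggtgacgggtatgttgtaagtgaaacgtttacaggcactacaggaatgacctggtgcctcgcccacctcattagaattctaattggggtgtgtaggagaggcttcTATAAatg
Muc13: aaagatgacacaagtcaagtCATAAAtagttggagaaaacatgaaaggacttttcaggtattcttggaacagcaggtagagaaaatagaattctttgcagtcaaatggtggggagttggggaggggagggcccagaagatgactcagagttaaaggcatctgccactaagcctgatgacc
*Muc2* held 4 of the 5 motifs. The letters TATAA, the core of a TATA box, were found upstream of *Muc2*, *Fcgbp* and *Tgm3* and in 17.5% of the same window of 32841 promoters. The CACCC box CCACCC, a type of site read by Krüppel-like factors, was found in *Muc2*, *Fcgbp* and *Agr2* and in 21.9% of all. The E-box CAGCTG, of the kind read by basic helix-loop-helix factors, was found in *Muc2* alone among the 5 and in 9.66% of all. The letters CATAAA, a core read by caudal-type homeobox factors, were found in *Agr2* and *Muc13* and in 7.96% of all. CGGAT, which holds the GGAT core that Ets-type factors can read, was found in *Muc2* and in 10.0% of all. A match is a description of the letters and does not show a site in use.

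The first comparison asked how these transcripts divide between cells of high Venus fluorescence and cells without it. In the duodenum 9 of the 10 members were higher in Venus-positive cells, against 8.88% of all genes tested. In the jejunum, ileum and colon 8 of 10 were higher, against 18.3%, 17.9% and 9.31% of all genes. No member was lower in any region. The members' median log2 difference was 6.19, 3.05, 3.90 and 1.66 from duodenum to colon, beside -0.16, -0.28, -0.27 and 0.00 over all genes tested. For 8 members (all but *Retnlb* and *Tgm3*) each positive library exceeded each negative library in all 4 regions, which held for 16.2%, 22.6%, 23.2% and 19.1% of all genes. In sorted cells measured in bulk, more cells of a type and more RNA per cell cannot be told apart.

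**Figure D1:**
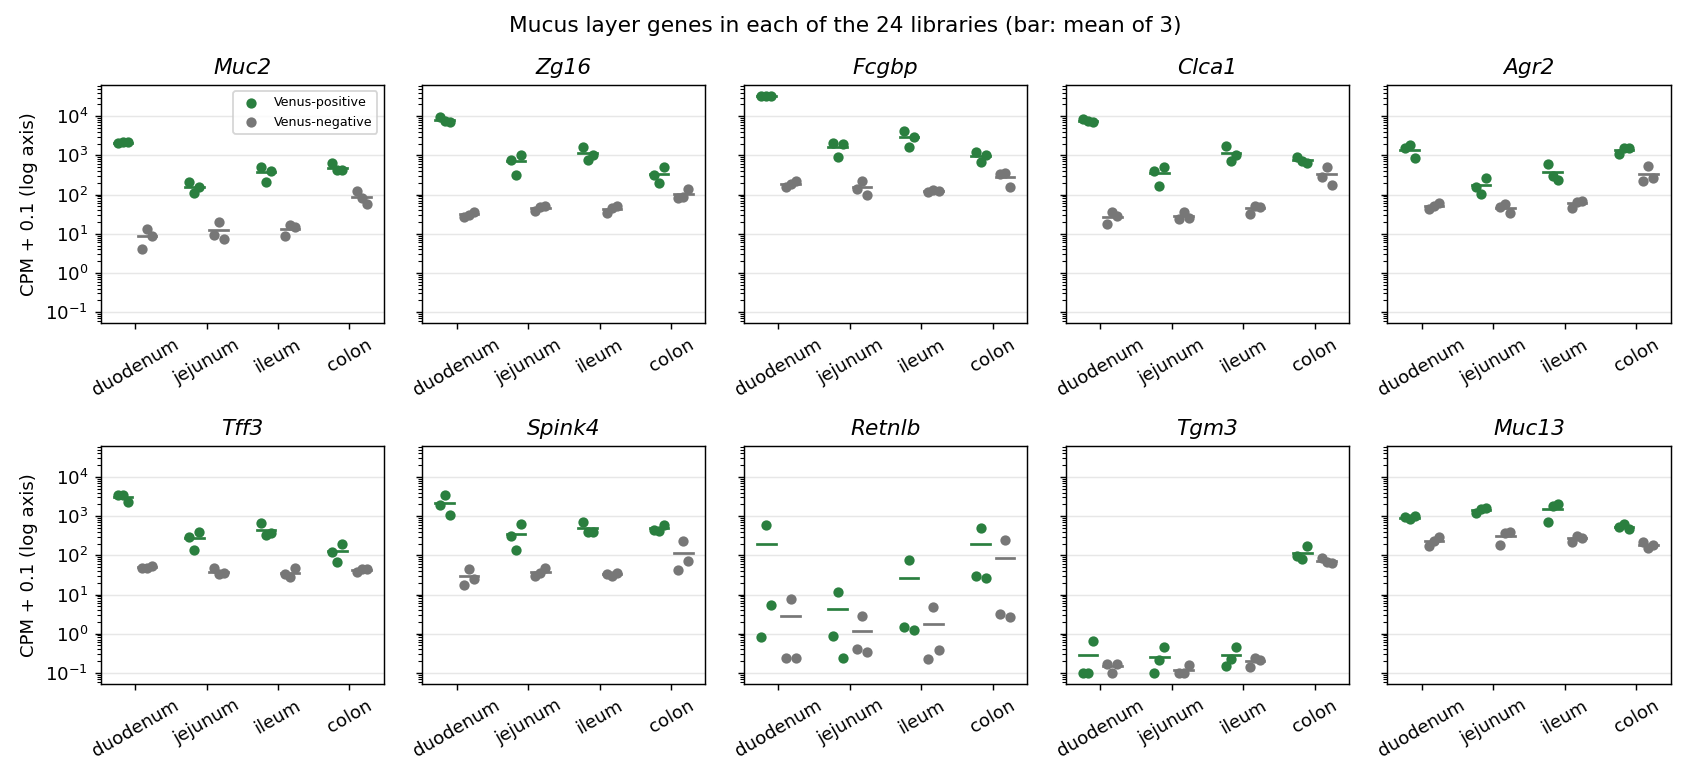
Level of each gene (CPM plus 0.1, log axis) in the 24 libraries by region, with Venus-positive cells in green and Venus-negative cells in grey; each point is 1 library and each bar the mean of 3. In 8 of the 10 panels the green points lie above the grey ones in each region, while *Retnlb* has 1 high point per group and *Tgm3* is at the bottom outside the colon.

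The size of the members' joint output differed most in the duodenum. There the 10 genes took 6.43% to 6.97% of all counts in positive libraries and 0.0412% to 0.0676% in negative libraries. In positive cells of the jejunum the share was 0.329% to 0.664%, in the ileum 0.707% to 1.43% and in the colon 0.403% to 0.515%. Negative cells held 0.0367% to 0.0690% in the jejunum, 0.0719% to 0.0837% in the ileum and 0.129% to 0.174% in the colon. Mitochondrial genes took a smaller part of the duodenal positive libraries (32.3% to 46.6%) than of the duodenal negative ones (64.6% to 76.4%). The share was also smaller in the positive libraries of the jejunum (47.1% to 60.6% against 61.2% to 78.8%) and ileum (41.0% to 55.4% against 64.7% to 70.9%), while the colonic ranges overlapped (68.6% to 77.9% and 65.3% to 80.7%). Among counts outside the mitochondrial genome the members' share was 9.502% to 12.4% in duodenal positive and 0.149% to 0.205% in duodenal negative cells. It was 0.835% to 1.25% against 0.173% to 0.276% in jejunal, 1.58% to 3.08% against 0.209% to 0.288% in ileal and 1.64% to 1.84% against 0.371% to 0.902% in colonic cells. Most of the members' counts in duodenal positive libraries 1, 2 and 3 fell on the long gene *Fcgbp*. It held 325725, 404651 and 288139 of 598910, 739638 and 479631 counts.

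*Muc2*, the gel-forming mucin itself (chr7:141690340-141754693, forward strand of GRCm38), was at 2034, 2156 and 2156 CPM in the 3 positive libraries of the duodenum and at 4.00, 12.8 and 8.72 CPM in the negative ones. The positive libraries agreed closely while the negative ones spread about their low mean. The log2 difference was 7.96 (standard error 0.55, adjusted p = 1.74e-11, quasi-likelihood test of edgeR, adjusted by the Benjamini-Hochberg method). Jejunal positive cells held 209, 111 and 155 CPM and negative cells 9.41, 19.8 and 7.32 CPM, a log2 difference of 3.70 (SE 0.45). In the ileum 516, 206 and 397 CPM stood against 8.46, 16.7 and 15.2 CPM, a log2 difference of 4.79 (SE 0.47). Both distal small-intestinal regions thus had more mucin message in each positive library, at a level far under that of the duodenum. Colonic positive cells were at 623, 434 and 415 CPM and colonic negative cells at 126, 80.4 and 58.9 CPM, the highest negative level of the 4 regions, with a log2 difference of 2.47 (SE 0.43, adjusted p = 0.000190).

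*Fcgbp* (chr7:28071236-28120862, forward strand), the von Willebrand D-type partner of the mucin, had the highest mean CPM of the 10 in the positive cells of the small intestine. Its duodenal positive libraries held 33361, 33222 and 32429.6 CPM and the negative ones 154, 192 and 222 CPM. The log2 difference was 7.45 (SE 0.54, adjusted p = 4.49e-11). The duodenal positive libraries again stood close together, whereas 1 library of jejunal and 1 of ileal positive cells lay well under the other two of its group. Jejunal positive cells were at 2034, 937 and 1901 CPM and ileal positive cells at 4197, 1624 and 2929 CPM, with negative means of 153 and 124 CPM and log2 differences of 3.41 and 4.55. The colon had 1252, 696 and 1034 CPM in positive and 340.4, 349.7 and 156 CPM in negative cells, a log2 difference of 1.82 (adjusted p = 0.00390).

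*Clca1* (chr3:145003817-145032776, reverse strand), the mucus protease, had the largest log2 difference of the duodenum among the 10, 8.12 (SE 0.55, adjusted p = 1.72e-11). Its libraries there were at 8292, 7520.4 and 7057 CPM in positive and 18.0, 36.2 and 28.1 CPM in negative cells, and the groups did not come near each other. The log2 difference was 3.65 in the jejunum and 4.71 in the ileum, from positive means of 357 and 1157 CPM. In the colon positive cells held 903, 702.08 and 659 CPM and negative cells 287, 519 and 179.7 CPM, so the groups came closer than elsewhere without overlapping. The colonic log2 difference of 1.20 (SE 0.41) only just passed, with an adjusted p of 0.0486. It did not pass without replicate 1, 2 or 3 of the colonic positive cells (log2 1.06, 1.22 and 1.30, adjusted p = 0.168, 0.119 and 0.0605). Nor did it pass without replicate 1 or 3 of the negative cells (log2 1.12 and 0.92, adjusted p = 0.133 and 0.210). The call also ended in 5 of 8 other scalings, filters and models (log2 1.02 to 1.22, adjusted p = 0.0521 to 0.0778).

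*Zg16* (chr7:127050156-127087328, reverse strand), the lectin, was at 9755, 7627 and 7087 CPM in duodenal positive and 27.1, 29.8 and 35.8 CPM in duodenal negative libraries. Its log2 difference was 8.04 (SE 0.53, adjusted p = 1.42e-11). Jejunal positive cells held 772, 315 and 1040.4 CPM, ileal positive cells 1687, 780.1 and 1018 CPM and colonic positive cells 309.5, 193 and 512 CPM. The level was thus lowest in the colon among the positive fractions, and the log2 differences were 3.96, 4.77 and 1.72 in the same order. A short RNA gene and a long non-coding gene lie on the opposite strand inside *Zg16*, and each held at most 3 counts in any library.

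*Agr2* (chr12:35992907-36004087, forward strand), the folding helper in the endoplasmic reticulum, reached 1515, 1872 and 849 CPM in duodenal and 1108, 1517 and 1546 CPM in colonic positive cells, and these groups overlapped. Negative cells held 41.7, 52.5 and 60.1 CPM in the duodenum and 218, 528 and 270.4 CPM in the colon. The log2 difference was 4.78 (SE 0.45, adjusted p = 7.52e-09) in the duodenum and 2.04 (SE 0.40, adjusted p = 0.000819) in the colon. In jejunal and ileal positive cells the gene was far lower, at 160.0, 106 and 270.4 CPM and 614, 304 and 240.0 CPM, with log2 differences of 1.96 and 2.70 over the negative cells.

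The secreted peptides *Tff3* (chr17:31125306-31129646, reverse strand) and *Spink4* (chr4:40920052-40931395, forward strand) were also higher in each positive group. *Tff3* was at 3496, 3391 and 2311 CPM in duodenal positive libraries and at 47.1, 48.8 and 53.1 CPM in the negative ones, a log2 difference of 5.95 (SE 0.45, adjusted p = 1.14e-10). Its negative group means along the gut lay between 35.8 and 49.7 CPM. The positive level fell to 121, 68.8 and 194 CPM in the colon, where the log2 difference was 1.60 (adjusted p = 0.00436). *Spink4* spread more within its groups, with 1962, 3516 and 1097 CPM in duodenal positive and 17.4, 44.7 and 25.1 CPM in duodenal negative libraries. Its log2 difference was 6.24 (SE 0.63) there. It was 3.24 for jejunal, 3.93 for ileal and 2.07 for colonic cells (colon, adjusted p = 0.00727). The jejunal value was 2.54 without jejunal positive 3 and 3.72 without jejunal positive 2. A single colonic negative library at 233 CPM stood above the other two, at 41.9 and 72.5 CPM, and without it the colonic log2 difference was 3.01.

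*Muc13* (chr16:33794037-33819934, forward strand), the mucin of the apical membrane, had a smaller log2 difference between the fractions than *Muc2*, *Zg16*, *Fcgbp*, *Clca1*, *Agr2*, *Tff3* and *Spink4* in the duodenum and ileum, and this order of the genes was not tested. It was at 925, 842 and 989 CPM in duodenal positive and 172, 237 and 302 CPM in duodenal negative cells, a log2 difference of 1.96 (SE 0.35, adjusted p = 0.000238). Jejunal and ileal positive cells were at 1218, 1546 and 1581 CPM and 708.15, 1819 and 2000.4 CPM, against negative means of 315 and 271 CPM. The log2 difference was 2.20 and 2.48 there and 1.54 in the colon, where positive cells were at 530.0, 614 and 468 CPM and negative cells at 222, 152 and 180.1 CPM. An antisense gene overlaps the start of *Muc13* and held 0 to 65 counts, so its reads are few beside the 1856 to 30280 counts on *Muc13*.

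*Tgm3* (chr2:130012349-130050399, forward strand), the transglutaminase, was a gene of the colon in these libraries. In the small intestine it had at most 5 counts in any positive library and at most 4 in any negative library, so no difference between the fractions was detectable at this depth. Colonic positive libraries held 94.6, 78.6 and 171 CPM (1224, 1111 and 2645 counts) and colonic negative libraries 87.6, 65.7 and 63.5 CPM (731, 897 and 747 counts). The fractions of the colon overlapped, with a log2 difference of 0.67 (SE 0.40) that missed the threshold (adjusted p = 0.303). Against the highest small-intestinal level or floor of the same fraction, the colonic mean was at least 204-fold higher in positive and at least 317-fold higher in negative cells.

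*Retnlb* (chr16:48816856-48818892, forward strand), the resistin-like peptide, behaved unlike the other 9 because 1 library in each group stood far above the remaining pair. Duodenal positive cells held 0.717, 578 and 5.18 CPM and colonic positive cells 30.1, 513 and 25.7 CPM. Ileal positive cells were at 1.40, 75.0 and 1.18 CPM and jejunal positive cells at 0.767, 11.3 and 0.146 CPM. The same shape was seen in negative cells, at 0.140, 7.78 and 0.144 CPM for the duodenum and 0.304, 2.70 and 0.242 CPM for the jejunum. Ileal negative cells held 0.124, 4.69 and 0.277 CPM and colonic negative cells 3.00, 249 and 2.64 CPM. The top library exceeded the next by 8.90-fold (jejunal negative cells) to 112-fold (duodenal positive cells), and in every group it was the library here numbered 2, a number given in order of deposition. In jejunal and ileal positive cells the same library was the lowest of its group for *Muc2*, *Fcgbp* and *Zg16*. The fractions overlapped in all 4 regions for *Retnlb*, since the top negative library lay above the remaining pair of positive libraries in each. Among the remaining pairs, positive lay above negative libraries in the duodenum, ileum and colon and overlapped with them in the jejunum. The duodenal log2 difference of 6.15 passed the threshold (SE 2.10, adjusted p = 0.0412) but fell to 0.090 (adjusted p = 0.997) without the top positive library. That fit kept the top negative library, at 7.78 CPM. Apart from the top library of each fraction, duodenal positive cells held 0.717 and 5.18 CPM and negative cells 0.140 and 0.144 CPM. Without replicate 1 or 3 of the negative cells the difference was 5.60 in each fit and did not pass (adjusted p = 0.126 and 0.125). The differences in the jejunum, ileum and colon did not pass (adjusted p = 0.454, 0.110 and 0.714). The ileal value (3.87) passed in 2 of 8 other settings, at 3.95 in each. The jejunal (1.91) and colonic (1.15) values passed with no filter alone (1.98 and 1.16). With the top library of each of the 8 groups left out, a choice made after these values were seen, 8 other members were still higher in positive cells of the duodenum, jejunum and ileum (3.98%, 14.2% and 12.9% of all genes in that fit) and 7 in those of the colon (3.02%), where *Muc13* had a log2 difference of 1.25 and an adjusted p of 0.177.

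**Figure D2:**
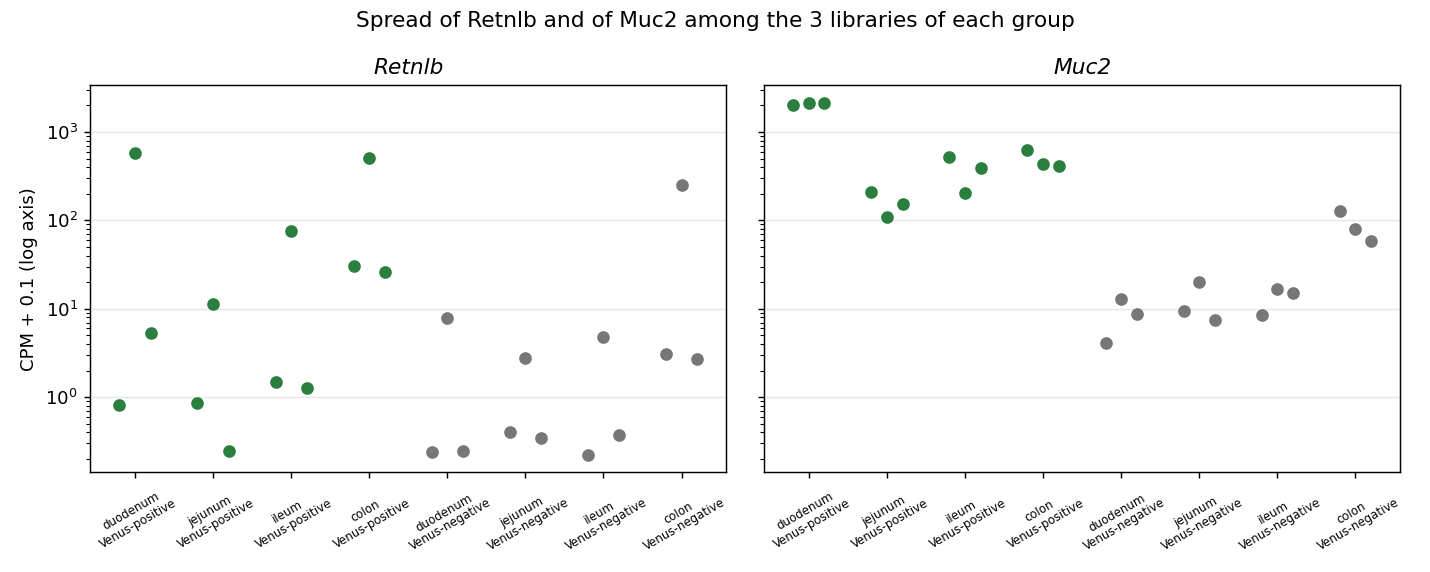
*Retnlb* and, for comparison, *Muc2* in the 3 libraries of each group (CPM plus 0.1, log axis; green, Venus-positive; grey, Venus-negative; each point 1 library, in the order 1 to 3 from left to right within a group). The middle library of each group is the highest for *Retnlb*, up to 578 CPM in duodenal positive cells, and no such step is seen for *Muc2*.

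The second comparison asked whether the fractions differed by more in some regions than in others, by interaction contrasts of the same model. *Muc2*, *Zg16*, *Fcgbp*, *Clca1*, *Agr2*, *Tff3* and *Spink4* differed by more in the duodenum than in the jejunum, ileum and colon. These were 7 of 10 members in each case, against 14.6%, 10.5% and 3.62% of all genes called in either direction. Over the jejunum the excess ranged from 2.82 (*Agr2*, SE 0.56) to 4.46 (*Clca1*, SE 0.60) on the log2 scale. Over the colon it ranged from 2.74 (*Agr2*) to 6.92 (*Clca1*). Over the ileum it ranged from 2.08 (*Agr2*, adjusted p = 0.0134) to 3.40 (*Clca1*, adjusted p = 0.000317). The *Agr2* excess over the ileum did not pass without replicate 3 of the ileal positive cells (1.83, adjusted p = 0.0534), and that of *Spink4* (2.31, adjusted p = 0.0352) was lost when any of 7 libraries was left out: duodenal positive 2, duodenal negative 1 or 3, ileal positive 2 or 3, or ileal negative 1 or 3 (1.79 to 2.31, adjusted p up to 0.138). With the 8 *Retnlb*-high libraries left out, the 7 calls became 5 over the jejunum, 3 over the ileum and 6 over the colon, where 1.86%, 2.18% and 0.913% of all genes were then called. The values that no longer passed were 2.09 for *Agr2* and 2.55 for *Spink4* over the jejunum, 2.22 for *Agr2* over the colon, and over the ileum 2.61 for *Fcgbp*, 1.67 for *Agr2*, 2.20 for *Tff3* and 2.20 for *Spink4*. The *Spink4* excess over the jejunum was 3.69 without jejunal positive 3, and that over the colon 3.30 without colonic negative 2.

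*Muc13* followed another course. Its difference in the duodenum was -0.24 (SE 0.48) relative to the jejunum, -0.52 (SE 0.48) relative to the ileum and 0.41 (SE 0.48) relative to the colon, and none passed (adjusted p = 0.796, 0.560 and 0.773). Between jejunum and ileum 0 members were called by edgeR (0 at an unadjusted p under 0.05 and 0 by DESeq2), against 0.266% of all genes. The jejunum exceeded the colon for 2 members, *Zg16* (2.23, SE 0.56) and *Clca1* (2.45, SE 0.58), against 9.69% of all genes called. *Fcgbp* (1.59, adjusted p = 0.0809) passed there in 4 and *Tff3* (1.26, adjusted p = 0.124) in 2 of 8 other settings, DESeq2 among them. The ileum exceeded the colon for 5 members, *Clca1* (3.51), *Zg16* (3.04), *Fcgbp* (2.74), *Muc2* (2.32) and *Tff3* (2.06), against 2.79% of all genes. The call for *Muc2* (adjusted p = 0.0251) was lost without ileal positive 3, ileal negative 1, colonic positive 2 or 3, or colonic negative 1 (1.96 to 2.31), and that for *Tff3* (adjusted p = 0.0293) without ileal positive 1, ileal negative 1 or 2, colonic positive 1 or 2, or colonic negative 3 (1.67 to 2.01). Without the 8 *Retnlb*-high libraries *Clca1* was called between jejunum and colon (1.91% of all genes in that fit), where *Zg16* was at 2.61. *Clca1* and *Zg16* were then called between ileum and colon (0.329%), where *Muc2* was at 2.86, *Fcgbp* at 2.74 and *Tff3* at 1.83.

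**Figure D3:**
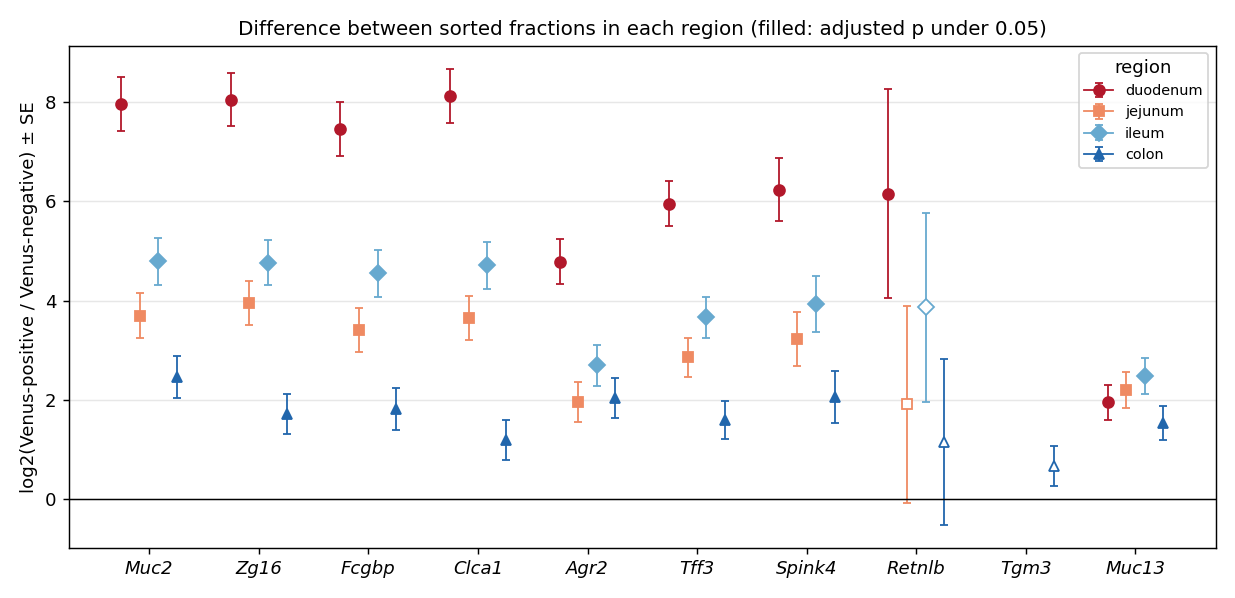
Log2 difference between Venus-positive and Venus-negative cells for each gene and region, with its standard error; filled symbols passed an adjusted p of 0.05 and open symbols did not. Apart from *Retnlb*, whose error bars are long, the duodenal values of 7 genes lie above those of the other regions, from 4.78 for *Agr2* to 8.12 for *Clca1*, and the 4 values of *Muc13* lie between 1.54 and 2.48. *Tgm3* is drawn for the colon only.

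Positive cells were then compared between regions. Duodenal positive cells exceeded jejunal ones for 8 members (33.2% of all genes called in either direction) and ileal ones for 7 (25.5%). Against the colon 6 members were higher in the duodenum (12.4%). *Tgm3* was lower there, as in each comparison with the colon, and since it passed the filter only through the colon its calls are left out of these counts. By mean level *Fcgbp* ran from 33004 ± 503 CPM (SD, n = 3) in the duodenum through 2917 ± 1287 in the ileum and 1624 ± 599 in the jejunum to 994 ± 280.4 in the colon. *Zg16* (8156 ± 1411, 1162 ± 470.0, 708.99 ± 367 and 338 ± 161 CPM) and *Tff3* (3066 ± 656, 453 ± 183, 279 ± 132 and 128 ± 63.1 CPM) kept that order, duodenum, ileum, jejunum and colon. The ileum and jejunum, neighbours in it, were not shown to differ for the 3 genes (adjusted p = 0.289, 0.368 and 0.338), nor were jejunum and colon for *Fcgbp* (log2 0.71, adjusted p = 0.191).

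The order was different for the mucin, its folding helper and *Clca1*, whose colonic level was the second or the third highest. *Muc2* was at 2115 ± 70.2, 490.3 ± 115, 373 ± 157 and 158 ± 49.4 CPM in duodenum, colon, ileum and jejunum, with colon and ileum not shown to differ (log2 ileum minus colon -0.39, adjusted p = 0.531). *Agr2* was at 1412 ± 519.6 CPM in the duodenum and 1390.1 ± 245 CPM in the colon, a log2 difference of 0.02 (SE 0.39, adjusted p = 0.987). Both were above the 386 ± 200.2 CPM of the ileum and the 179 ± 83.9 CPM of the jejunum. *Clca1* was at 7623 ± 624, 1157 ± 500.56, 755 ± 130.3 and 357 ± 177 CPM in duodenum, ileum, colon and jejunum, and ileum and colon were not shown to differ (adjusted p = 0.296; 0.0371 with library size alone). *Spink4* was at 2192 ± 1226 CPM in the duodenum and at means of 356 to 494 CPM elsewhere, where no pair of regions was called; its log2 difference between duodenum and jejunum, 2.62, was 3.31 without jejunal positive 3. *Muc13* had its highest means in the ileum (1509 ± 699.7 CPM) and jejunum (1448 ± 199.99 CPM), then the duodenum (919 ± 73.7 CPM) and the colon (537 ± 73.2 CPM). No neighbours in that order were shown to differ (duodenum and colon passed with library size alone, adjusted p = 0.0340), while jejunum and ileum both exceeded the colon (log2 1.43 and 1.49).

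Among the more distal regions, 1 member was called between jejunal and ileal positive cells (5.15% of all genes), *Clca1*, lower in the jejunum by 1.70 (adjusted p = 0.0105). That call was lost without jejunal positive 2 or ileal positive 1 (-1.33 and -1.30). *Muc2* (-1.24, adjusted p = 0.0793) passed in 4 of 8 other settings. Between jejunum and colon 7 members besides *Tgm3* were called, against 33.9% of all genes. *Zg16* (1.07), *Tff3* (1.12) and *Muc13* were higher in the jejunum, and *Muc2* (-1.63), *Clca1* (-1.08), *Agr2* (-2.96) and *Retnlb* were lower. Those for *Zg16* and *Tff3* did not pass without jejunal positive 1 or 3 or colonic positive 1 or 2 (0.68 to 1.08), and that for *Clca1* did not pass without jejunal positive 1 or 2 or any single colonic positive library (-1.17 to -0.75). With the compared libraries only, *Zg16* and *Tff3* did not pass (adjusted p = 0.0763 and 0.0564). Nor did *Zg16* with at least 10 counts in every library (0.0634), or *Clca1* with library size alone or no mitochondrial genes (0.131 and 0.0661). Between ileum and colon 5 members besides *Tgm3* were called (21.7%). *Zg16* (1.78), *Tff3* (1.82), *Fcgbp* (1.55) and *Muc13* were higher in the ileum, and *Agr2* (-1.85) was lower. The *Fcgbp* call was lost without ileal positive 1 or colonic positive 2 (1.20 and 1.32). *Retnlb* was called higher in duodenal than in jejunal positive cells and lower in jejunal than in colonic ones, and the duodenal value changed sign without the top duodenal library (-0.51). The first call was also lost without jejunal positive 1 or 3, and the second without jejunal positive 1 or 3 or the top colonic library. With the i5 index as a covariate the second was lost as well (-4.92, adjusted p = 0.0975). Without the 8 *Retnlb*-high libraries, *Agr2* between duodenum and ileum (1.53), *Spink4* between duodenum and colon (1.59), *Clca1* between jejunum and ileum (-1.57), *Zg16*, *Tff3* and *Clca1* between jejunum and colon (1.13, 1.13 and -0.80), and *Fcgbp* and *Muc13* between ileum and colon (1.61 and 1.43) no longer passed (adjusted p = 0.0515 to 0.242).

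Negative cells of the 3 small-intestinal regions were not shown to differ for any member in the main fit. There 0 of 10 were called by edgeR (0 at an unadjusted p under 0.05), and 0 were called by DESeq2. The share of all genes called in the main fit was 0.725% between duodenum and jejunum, 4.4% between duodenum and ileum and 2.11% between jejunum and ileum. Scaled by library size alone, edgeR called *Muc2* (-1.26) and *Clca1* (-1.29) lower in duodenal than in ileal negative cells, with 16.1% of all genes called. The colon stood apart. Colonic negative cells exceeded duodenal ones for 5 members besides *Tgm3* (11.2% of all genes called in either direction), *Clca1* (log2 duodenum minus colon -3.58), *Muc2* (-3.38), *Agr2* (-2.72), *Spink4* (-1.99) and *Zg16* (-1.73). They exceeded jejunal and ileal negative cells for 4 members by edgeR, *Clca1*, *Muc2*, *Agr2* and *Spink4*, against 10.5% and 5.24% of all genes. *Zg16* (-1.17 and -1.26) narrowly missed the threshold (adjusted p = 0.0583 and 0.0611), and it passed in 6 and 7 of 8 other scalings, filters, models and tools. *Muc2*, *Clca1* and *Agr2* were thus at 88.6 ± 34.4, 329 ± 174 and 339 ± 166 CPM in colonic cells sorted as negative, while the highest small-intestinal negative means were 13.5, 44.1 and 59.5 CPM. The *Spink4* calls rested on the colonic library at 233 CPM: without it the log2 values were -1.10, -0.77 and -0.95 against duodenum, jejunum and ileum (adjusted p = 0.184, 0.396 and 0.333), and the calls were also lost without duodenal negative 1 or 3, any single jejunal negative library or any single ileal negative library. Without the 8 *Retnlb*-high libraries the *Spink4* values were -1.54, -0.73 and -0.89 (adjusted p = 0.0692, 0.456 and 0.487). *Fcgbp*, *Tff3* and *Muc13* were not called by edgeR in these comparisons, while DESeq2, and edgeR with no filter on low counts, called *Fcgbp* between jejunum or ileum and colon.

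To compare the genes with each other, counts were divided by the length of each gene's exons and scaled to the same sum in each library (TPM), and each gene's share of the members' sum was taken. In duodenal positive cells *Zg16* (27.0% ± 4.84, SD, n = 3) and *Tff3* (25.4% ± 1.54) led, followed by *Spink4* (18.0% ± 7.18), *Fcgbp* (13.2% ± 2.76) and *Clca1* (8.45% ± 1.44). Colonic positive cells had another make-up, with *Agr2* (30.9% ± 1.62) and *Spink4* (29.4% ± 4.15) ahead of *Zg16* (7.76% ± 3.28). By mean share, jejunal and ileal positive cells were led by *Spink4* (24.8% and 23.6%). *Tff3* and *Zg16* were each at about the same share (20.1% and 19.7% of jejunal, 20.7% and 20.8% of ileal TPM). The jejunal order was not the same in each library. *Spink4* was at 304, 136 and 627 CPM in jejunal positive 1, 2 and 3, and in library 2 *Muc13* (1546 CPM) had a larger share than *Spink4*. *Muc13* took 1.29% ± 0.388 in duodenal positive and 23.2% ± 3.56 in duodenal negative cells, and 20.0% ± 10.7 in jejunal positive cells. In the negative cells *Tff3* led in the duodenum (30.7% ± 5.13), *Muc13* in the jejunum (28.4% ± 7.27) and ileum (26.4% ± 3.20), and *Agr2* in the colon (27.0% ± 2.38).

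*Muc2* took 0.342% to 2.06% of the members' TPM as group means. Per longest transcript in place of all exons, *Zg16* led jejunal (27.3% against 23.7% for *Spink4*) and ileal positive cells (28.4% against 22.3%), with *Tff3* at 16.0% and 16.3%, and the leaders of the other 6 groups were the same. The share of *Muc2* depends on the annotation, in which the exons of *Muc2* add up to 7127 bases and its longest transcript has 2926. These shares describe message and not protein, and the short genes *Spink4* (477 bases of exon) and *Tff3* (493 bases) weigh more on this scale than in CPM.

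**Figure D4:**
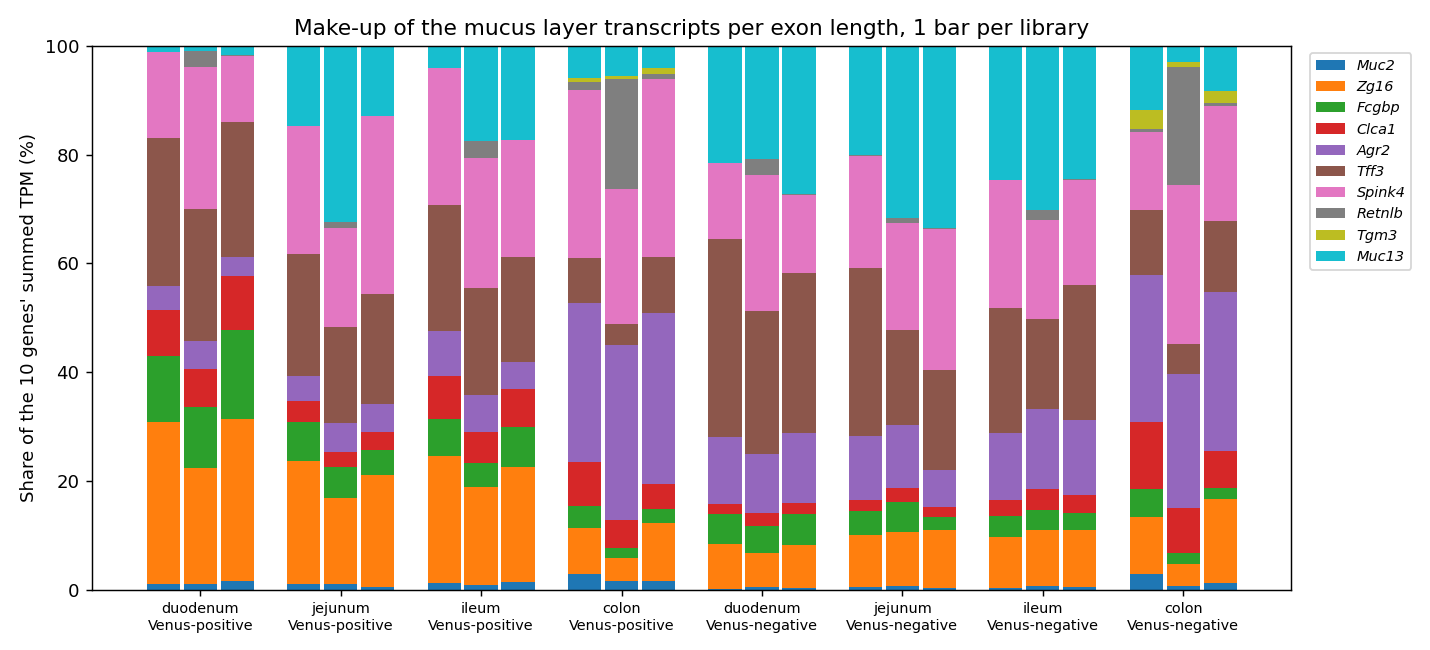
Share of each gene in the summed TPM of the 10 (percent, counts per exon length), with 1 stacked bar for each of the 24 libraries, grouped by region and fraction. *Fcgbp* takes more of the duodenal positive bars than of the others, *Zg16* more of the positive than of the negative bars of the small intestine, *Agr2* more of the colonic bars, and *Muc13* more of the small-intestinal negative bars than of the duodenal positive ones. The grey *Retnlb* block is tall in 1 colonic library of each fraction.

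Likeness of pattern was described by Pearson's r of log2 CPM over the 24 libraries, which share groups, regions and sort, so that no p was computed. *Muc2* was most like *Clca1* (r = 0.98), the membrane-trafficking gene *Fer1l6* (0.98) and *Bcas1* (0.97). *Zg16*, *Fcgbp* and *Tff3* were nearest to each other (0.97 to 0.98), and in the 12 positive libraries alone *Zg16* and *Tff3* had an r of 0.998. Next came *Fer1l6* for *Zg16* (0.96), *Ano7* for *Fcgbp* (0.95) and the defensin gene *Defa27* for *Tff3* (0.94, and 0.96 in the positive libraries). *Agr2* was nearest to *Spdef* (0.97), a transcription factor of goblet cell maturation, *Gcnt3* (0.95), an enzyme of mucin-type glycan branching, and *Sytl2* (0.95). *Spink4* was nearest to the chemokine gene *Ccl6* (0.98) and the protease gene *Capn9* (0.96). *Tgm3*, with its colonic pattern, was nearest to *Cyp2d10* (0.98), *Atp12a* (0.97) and *Lpo* (0.97). *Muc13* was nearest to *Tapbp* (0.97), *Btnl5-ps* (0.97) and *Ppp1r15b* (0.96), and its r with *Muc2* was 0.66 over all libraries and -0.43 over the positive ones. The positive libraries alone gave other neighbours for some members, with *Agr2* nearest to *Prelid2*, *Myrip* and *Rsu1* (each 0.98) and *Clca1* to *Rab27a* (0.98). *Retnlb* had no close neighbour over the 24 libraries, with *Mrs2* (0.76) the highest.

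Other genes of goblet cells, a list of 20, were measured beside the members. The counts of this and the following lists stand beside 8.88%, 18.3%, 17.9% and 9.31% of all genes tested that were higher in positive cells, and 8.08%, 25.6%, 20.6% and 3.8% that were lower, from duodenum to colon. All 20 were higher in duodenal positive cells, 9 in jejunal, 17 in ileal and 13 in colonic ones, and none was lower, with median log2 differences of 4.51, 0.95, 2.38 and 1.66. *Bcas1* was at 157 ± 77.3 against 0.583 ± 0.370 CPM in the duodenum (log2 8.07), *Tpsg1*, a tryptase-like protease gene, at 33.3 ± 8.39 against 0.212 ± 0.210 CPM, and *Klf4*, a factor of goblet cell differentiation, at 244 ± 57.8 against 24.3 ± 14.8 CPM in the jejunum (log2 3.33). *Capn9* had the largest difference of the list in the jejunum (4.10) and ileum (4.44), and *Sytl2* in the colon (2.55, 114 ± 11.1 against 19.6 ± 9.16 CPM).

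Of 13 other mucins 11 were annotated and 5 were abundant enough to test. From duodenum to colon 1, 1, 2 and 2 of the 5 were higher in positive cells and 0, 1, 1 and 0 lower. Their median log2 differences were 0.15, -0.26, 0.16 and 2.21. *Muc3*, a membrane-bound mucin, was higher in positive cells of the jejunum (851 ± 168 against 88.7 ± 39.1 CPM), ileum (1315 ± 579 against 88.7 ± 21.2 CPM) and colon (607 ± 172 against 99.4 ± 51.5 CPM). *Muc3a* was higher by 4.61 on the log2 scale in the duodenum (34.5 ± 6.66 against 1.41 ± 0.364 CPM), 1.34 in the ileum and 2.21 in the colon. Reads of *Muc3* and *Muc3a*, which are similar, may have been divided between them. *Muc4*, also bound to the membrane, was lower in positive cells of the jejunum (8.25 ± 3.68 against 26.9 ± 11.9 CPM) and ileum (9.71 ± 2.08 against 33.9 ± 8.55 CPM).

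Of 11 paralogs of the members tested, 1, 3, 5 and 2 were higher and 1, 2, 3 and 3 lower from duodenum to colon, counts that lie near the all-gene shares in part. *Clca3b*, a relative of *Clca1*, was lower in positive cells of all 4 regions, at 71.1 ± 59.7 against 199.8 ± 31.4 CPM (duodenum), 15.4 ± 16.958 against 217 ± 28.2 (jejunum), 28.2 ± 4.26 against 397 ± 97.1 (ileum) and 36.8 ± 3.21 against 232 ± 32.5 (colon). *Clca4b* was higher in the jejunum (1261 ± 68.3 against 126 ± 19.9 CPM) and ileum (870.0 ± 532 against 48.6 ± 25.3 CPM), and *Clca4a* in the jejunum (760.3 ± 307 against 50.3 ± 9.57 CPM) and colon (74.5 ± 29.2 against 4.47 ± 3.16 CPM). The *Clca* genes lie in 1 cluster and are similar, so some of their reads may be shared. *Tff2*, a trefoil relative of *Tff3*, was at 4.78 ± 1.60 against 0.220 ± 0.381 CPM in the colon (log2 4.26).

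Other proteins of the mucus and crypt secretions, a list of 10, had 5, 5, 7 and 3 members higher and 1, 2, 1 and 0 lower from duodenum to colon. The lectin *Itln1* was at 5786 ± 1755 against 52.5 ± 39.7 CPM in the duodenum (log2 6.78) and the antimicrobial ribonuclease *Ang4* at 277 ± 101 against 12.2 ± 3.99 CPM in the ileum (log2 4.50). *Dmbt1*, a scavenger-receptor glycoprotein of mucosal secretions, went the other way, at 389.6 ± 339.9 against 1137 ± 116 CPM in the duodenum, 17.3 ± 10.5 against 311 ± 125 in the jejunum and 69.3 ± 14.3 against 442 ± 202 in the ileum. In the colon *Lypd8*, which binds flagella at the mucosal surface, was at 1702 ± 319 against 408 ± 106 CPM, and *Mep1b*, the protease meprin beta, at 68.2 ± 14.9 against 11.9 ± 7.40 CPM.

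Markers of other cell types moved with the sort as well, beside the all-gene shares given above. All 10 Paneth cell markers were higher in the positive fraction of the 3 small-intestinal regions and 1 of 10 in that of the colon, with summed levels of 16738 to 46553, 1441 to 14002, 3967 to 9063 and 92.3 to 118 CPM in positive and 169 to 679, 268 to 697, 219 to 400.3 and 14.7 to 47.7 CPM in negative libraries. Of 14 enterocyte markers 3, 11, 14 and 7 were higher and 2, 1, 0 and 0 lower, and their sum was 2339.9 to 5099 CPM in duodenal positive libraries but 28173 to 33704 CPM in jejunal, 9394 to 18049 CPM in ileal and 771 to 976 CPM in colonic ones. The negative libraries held 1889.6 to 2652, 2796 to 3689, 708.6 to 1157 and 261 to 301 CPM of them. Of 10 enteroendocrine markers 10, 10, 9 and 6 were lower in positive cells, of 6 tuft cell markers 3, 6, 5 and 0, and of 8 markers of stem and dividing cells 4, 8, 8 and 6. The enteroendocrine markers summed to 19.9 to 314 CPM in positive and 254 to 1767 CPM in negative libraries, the tuft cell markers to 3.20 to 19.0 and 14.9 to 61.2 CPM, and those of stem and dividing cells to 43.1 to 1048.5 and 192 to 3810.3 CPM. The tuft cell cytokine gene *Il25* was at 0 in every library. No marker of the Paneth, enterocyte, enteroendocrine or stem cell lists was at 0 in all 6 libraries of a region. The part of these cells in the members' differences was not tested.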

How the data were processed

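Stranded total-RNA libraries (SMARTer pico kit) of sorted cells were read as single 50-base reads. The authors deposited whole-number counts per gene, made per the labels with CASAVA and STAR 2.5.1 on GRCm38. The strand setting and annotation of the counting are not given in the sources used here, and GENCODE M21 supplied positions and exon lengths. Counts were fitted in R 4.3.3 with edgeR 4.0.16 (filterByExpr, minimum count 10 and total 15; TMM scaling; quasi-likelihood test; 8 groups over 24 libraries), with 22 contrasts, each adjusted over the 15044 genes tested at 0.05. The common dispersion was 0.185. Correlations used log2 CPM with a prior count of 2. Alternatives were other scalings and filters, DESeq2 1.42.0, the i5 index as a covariate, the compared libraries only, no mitochondrial genes, and each library left out. Members and lists were chosen with earlier results of these data known. Genes named with their levels from the other lists were among up to 2 per direction, list and region. These had the largest log2 differences past the threshold among genes whose fractions do not overlap, and not all of them are named. For likeness, the neighbours named are among the 3 genes with the highest r. Nothing says which libraries came from 1 mouse, so p-values measure the spread between libraries.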

Additional observations from a re-analysis of the deposited data

Results flagged for a closer look

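The difference between Venus-positive and Venus-negative cells itself differed between regions for 28 pairs of a gene and 2 regions, each by an interaction contrast. Values are the first region's log2 difference minus the second's. Duodenum minus jejunum gave 4.26 for *Muc2*, 4.08 for *Zg16*, 4.04 for *Fcgbp*, 4.46 for *Clca1*, 2.82 for *Agr2*, 3.08 for *Tff3* and 3.00 for *Spink4*. Duodenum minus ileum gave 3.16 for *Muc2*, 3.28 for *Zg16*, 2.89 for *Fcgbp*, 3.40 for *Clca1*, 2.08 for *Agr2*, 2.29 for *Tff3* and 2.31 for *Spink4*. Duodenum minus colon gave 5.49 for *Muc2*, 6.32 for *Zg16*, 5.63 for *Fcgbp*, 6.92 for *Clca1*, 2.74 for *Agr2*, 4.35 for *Tff3* and 4.17 for *Spink4*. Jejunum minus colon gave 2.23 for *Zg16* and 2.45 for *Clca1*. Ileum minus colon gave 2.32 for *Muc2*, 3.04 for *Zg16*, 2.74 for *Fcgbp*, 3.51 for *Clca1* and 2.06 for *Tff3*. The contrasts share libraries, so these values are not independent of each other.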

How the results depend on the processing

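For 121 values (the differences between the fractions, the calls between regions and the *Muc13* interactions with the duodenum), other scalings, filters, models and tools gave 931 repeats with the same direction and side of the threshold, 14 that no longer passed, 4 that newly passed and 0 that reversed. Over all 220 pairs of a member and a comparison, 106 were not called, and 27 of these passed under at least 1 of those 8 settings, 14 of them for *Retnlb*, and 13 with no filter alone. Without the 8 *Retnlb*-high libraries, 92 of the values followed were kept and 23 no longer passed. With 1 library left out, 847 repeats were kept, 60 no longer passed and 5 reversed. The values followed include the calls of *Tgm3* against the colon, and so do the counts below that are marked as including *Tgm3*. That gene passed the filter only through the colon, so its repeats and calls there are not read as support. *Retnlb* reversed between the fractions without the second positive library of the jejunum (-1.12 to 3.90 over the left-out fits), ileum (-0.45 to 7.005) or colon (-1.63 to 6.01), and between duodenal and jejunal positive cells without the second duodenal one (-0.51 to 8.74). Each of these fits kept the top *Retnlb* library of the other group. Apart from the top libraries, positive cells held 0.767 and 0.146 CPM against 0.304 and 0.242 in the jejunum. They held 1.40 and 1.18 against 0.124 and 0.277 in the ileum, and 30.1 and 25.7 against 3.00 and 2.64 in the colon. The *Muc13* interaction of duodenum and jejunum reversed without jejunal negative 1 (-0.44 to 0.020). Over the positive libraries alone, r with *Muc2* was -0.0257 for *Tgm3* and -0.43 for *Muc13*. For positive cells of jejunum and ileum the count of members called (1) became 3 with library size alone (5.96% of all genes in that fit), 4 with no filter (2.94%), 2 with the i5 index (6.18%) or DESeq2 (7.64%), 0 with the compared libraries only (5.48%), and 0 to 2 with a library left out (2.81% to 6.3%). Negative cells of duodenum and ileum had 2 with library size alone (16.1%). With no filter the counts were 1 for the interaction of jejunum and ileum (0.435%), 4 for that of jejunum and colon (4.49%), and 8, *Tgm3* included, for negative cells of jejunum or ileum against colon (4.7% and 2.82%). The interaction of jejunum and colon had 4 by DESeq2 (14.3%) and 2 to 4 with a library left out (4.9% to 12.1%), and that of ileum and colon 3 to 5 (1.14% to 4.1%). Positive cells of jejunum and colon had 5 with at least 10 counts in every library (41.2%) and 4 to 7, *Tgm3* included, with a library left out (23.8% to 31.5%). Without the 8 *Retnlb*-high libraries, an alternative added after seeing the data, the counts over the other 9 members were 0 for positive cells of jejunum and ileum (1.8%), 4, *Tgm3* included, for those of jejunum and colon (19.8%), and 3, 1 and 2 for the interactions of duodenum and ileum (2.18%), jejunum and colon (1.91%), and ileum and colon (0.329%). The median difference between the fractions over all genes was -0.16, -0.28, -0.27 and 0.00 from duodenum to colon, and 0.27, 0.02, -0.31 and -0.07 with library size alone. The cause of these changes was not tested. DESeq2 gave no adjusted p for *Retnlb* in any contrast. No paired analysis was made, since the labels tie no library to a mouse. *Tgm3* in the small intestine lay at the limit of depth.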

Other observations

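The 8 libraries with the most *Retnlb* in their groups were also the highest of their groups for 18 other tested genes, so 19 genes shared this order. *Retnlb* alone among the 19 exceeded the next library by at least 2-fold in every group. The smallest step of *Arhgef4* over the 8 groups was 1.99-fold, and no other member of the mucus genes had this order. These genes were found by looking for the order, and no test was made.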
